A study of Arabidopsis thaliana with 9 samples.

Results

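A set of 74 genes of Arabidopsis thaliana gave a bright signal in ribosome-bound mRNA of floral buds and a signal at least 8 times lower in both other sample types of the study. They were chosen by measured values: a bud mean of at least 300, a bud mean at least 8 times the in vivo mean and at least 8 times the in vitro mean, and a lowest bud array above every other array. Of 22746 probe sets, 13513 carry the name of 1 gene (13286 different genes), and 145 probe sets met the value thresholds. Of these 145, 61 had no gene named here, 2 named several genes, and 8 belong to genes set aside by name, namely AT5G07230, SHT, ATA27, LCR66, AT1G66850, AT3G52130, AT5G62080 and AT4G14815. The remaining 74 probe sets stand for 74 different genes, of which 69 are known in the tables used here by a locus code alone. The differences from bud to the other groups chose the genes, so they are given below as a description, and nothing is read from tests of them.

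All 9 arrays came from LAT52-HF-RPL18 plants, which carry a FLAG-tagged ribosomal protein L18 under the pollen promoter ProLAT52, so every group shares this transgene. There were 3 arrays for each of 3 groups. Bud samples are labelled with floral stages 11 to 12. In vivo samples came from self-pollinated flowers at stage 14, so stage and pollination cannot be told apart between these groups. In vitro samples were pollen tubes grown in culture. The series text names unpollinated styles for the bud group, and the sample labels were followed. The plants grew at 22 °C with 18 h of light, polysomes were taken from sucrose gradients of 20% to 60%, and the tagged ribosomes were pulled down through the FLAG tag. Their RNA went through a single linear amplification before labelling.

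In the anther, developing pollen is nursed by the tapetum, a cell layer that secretes enzymes, lipid carriers and wall material into the locule and then breaks down before the anther opens. The pollen wall, its coat and the release of microspores from their shared callose wall all draw on such secreted products. Meanwhile the microspores divide, store oil and prepare for drying. A bud at these stages also holds sepals, petals, filaments and the pistil. In bulk samples of this kind, fewer cells of a type and less RNA per cell cannot be told apart.

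The signals are MAS5 values on a linear scale, in which each array was set to the same trimmed mean of about 500. The brightness of different probe sets does not compare the abundance of their genes. Array medians lay between 175 and 196 for bud, between 174 and 187 for in vivo and between 68.6 and 112 for in vitro arrays, highest on in vitro replicate 3. Markers of green tissue were bright in both flower samples, although the tissue field of every sample names pollen grains or pollen tubes. Of 8 listed photosynthesis genes 4 were measured, meaning here that a probe set named the gene alone. Their summed signal per array was 31192 to 56986 on bud arrays, 30032 to 45862 on in vivo arrays and 286 to 602 on in vitro arrays. Of 7 pistil and ovule genes 3 were measured, with sums of 3622 to 4163 on bud arrays, 5126 to 5651 on in vivo arrays and 93.0 to 182 on in vitro arrays. Of 9 pollen tube genes 8 were measured, with sums of 1368 to 2280.2 on bud arrays, 7063 to 20265 on in vivo arrays and 402464 to 562498 on in vitro arrays. None of these markers was at 0 on any array.

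As a set, the 74 genes had bud means from 323 to 54612, with a median of 1302. Their in vivo means ran from 4.50 to 5198 with a median of 37.4, and their in vitro means from 7.79 to 407 with a median of 49.0. The median ratio of bud to in vivo mean was 33.1, and that of bud to in vitro mean 30.0. On the bud arrays the median member sat at percentile 88.9 to 89.5 of all probe sets, against percentile 22.7 to 28.2 on the in vivo arrays and 30.3 to 37.9 on the in vitro arrays. The members together held 1.32% to 1.48% of all signal on the bud arrays, 0.0644% to 0.0773% in vivo and 0.0140% to 0.0145% in vitro. Bright genes weigh most in such sums. AT2G20870 alone gave 60643 of 235811 on bud replicate 1 and 4478 of 11624 on in vivo replicate 1. These shares therefore do not describe the typical member, whose median log2 fold in vivo against in vitro was -0.06.

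**Figure D1:**
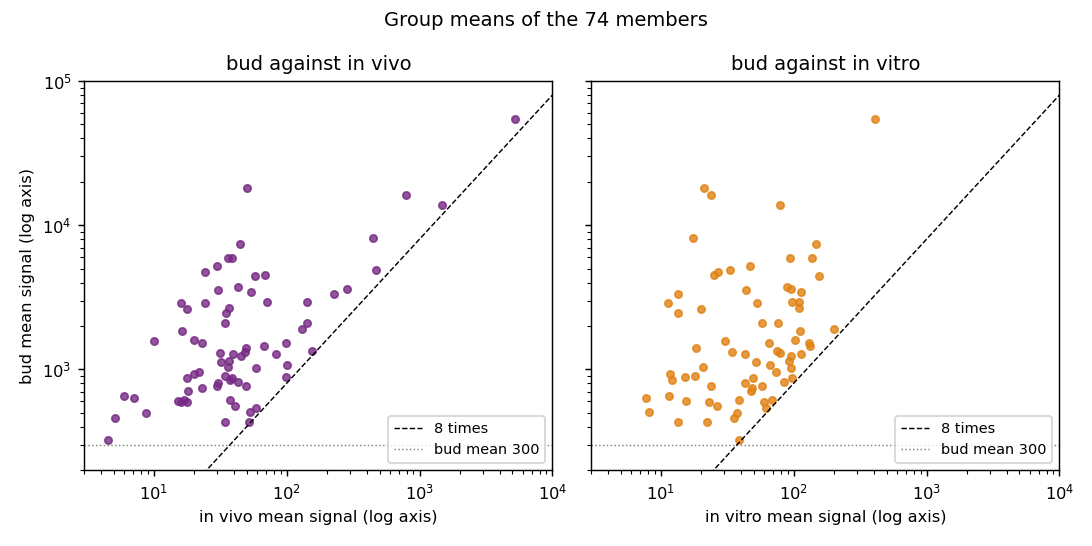
Bud mean signal of each of the 74 genes (vertical, log axis) against its in vivo mean (left) and its in vitro mean (right, both log axes). Each point is 1 gene, the dashed line marks a bud mean 8 times the other mean and the dotted line the bud minimum of 300. In vivo, 1 gene reaches 5198 and a few others follow the dashed line, while in vitro none is above 407.

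In limma, all 74 were called lower in vivo than in bud at an adjusted p under 0.05, where 1.87% of all probe sets were called lower, 2.15% higher and 4.02% either way. All 74 were also called lower in vitro than in bud, where 40.5% of all probe sets were called lower, 20.4% higher and 60.9% either way. The rule used both contrasts, so these counts follow from the choice of genes. The log2 folds, on the log2(signal + 16) scale, were -8.49 to -2.68 in vivo against bud (median -4.36, against -0.02 for all probe sets) and -9.06 to -2.98 in vitro against bud (median -4.53, against -0.42).

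Outside bud these genes were not uniformly dim. On all 3 in vivo arrays, 66 of the 74 were at or below the array median, and 5 were above it on every in vivo array. In vitro, 33 of the 74 were at or below the array median on each array and 6 were above it on every array. These counts set brightness against the rest of the array, and detection calls were not used here. The in vitro array medians were only 68.6 to 112, so lying above them does not show expression. In vivo means reached 5198, so a name such as bud-only does not describe every member.

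AT1G68875, the marker given with the rule, had the lowest fitted log2 folds against bud in both groups, -8.49 in vivo and -9.06 in vitro. It has no symbol in the tables used here. Its bud signals were 19178, 15874 and 19648, its in vivo signals 40.4, 2.79 and 107, and its in vitro signals 7.32, 12.0 and 44.1. The ratio of measured means was 364 against in vivo and 862 against in vitro, and since the low signals may lie at background these ratios are not exact folds. Both low groups scattered over the dim end of their arrays and overlapped each other.

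In another 4 genes the measured bud mean was also at least 100 times both other means. AT5G48210 had bud signals of 3786, 5437 and 5008 against 7.53 to 53.7 in vivo and 4.37 to 67.7 in vitro. AT1G33430, of a galactosyltransferase type that acts in building the patterned outer wall of pollen, had 3863, 5975 and 5688 in bud against 12.6 to 40.0 in vivo with 15.5 to 83.4 in vitro. AT5G16960, a dehydrogenase-like gene, had 1973, 2768 and 3871 in bud against 3.86 to 38.0 in vivo with 6.83 to 14.6 in vitro. In each of these genes the bud arrays stood far above the rest, and the 2 low groups overlapped. AT1G75920, of the extracellular lipases found in the pollen coat, had 2631, 2682 and 2504 in bud, so its bud arrays nearly coincided, against 9.00 to 27.5 in vivo and 7.21 to 42.1 in vitro.

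**Figure D2:**
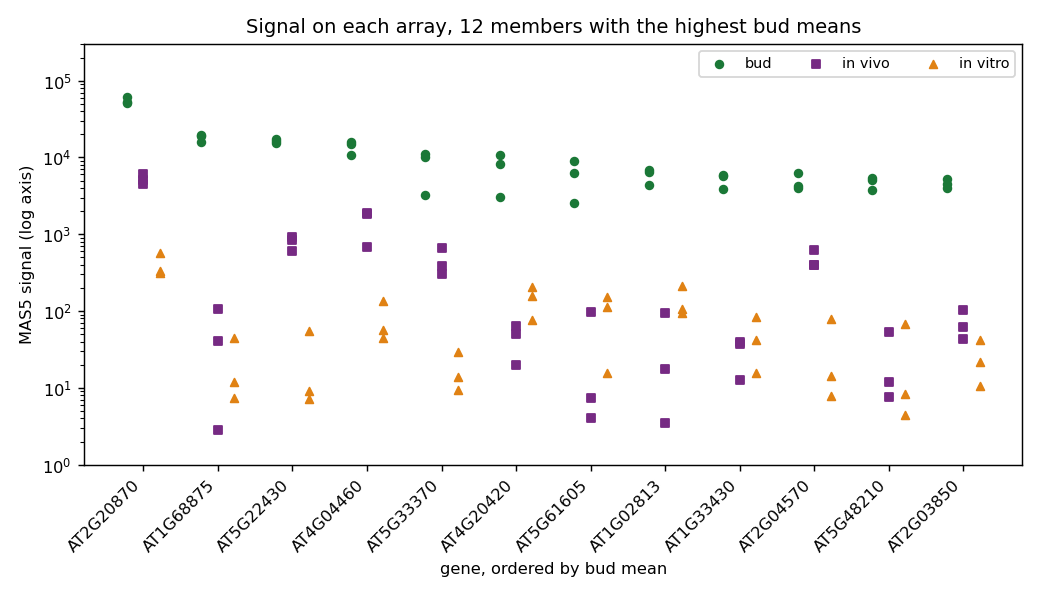
Signal on each of the 9 arrays (vertical, log axis) for the 12 members with the highest bud means, ordered by that mean. Circles are bud, squares in vivo and triangles in vitro arrays. AT2G20870, AT5G22430, AT4G04460, AT5G33370 and AT2G04570 keep in vivo signals from 302 to 6020.2, apart from their in vitro signals, while in vivo and in vitro signals of AT1G68875, AT1G33430 and AT5G48210 overlap.

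The rule fixes no order between the in vivo and the in vitro group, so this difference could be tested. In limma, 12 of the 74 were called higher in vivo than in vitro and 10 lower, and 52 were not called. Of all probe sets, 39.4% were called higher and 20.0% lower in this contrast, 59.3% in all. The 12 called higher were 3 of 6 lipases, 2 of 5 genes for secreted wall-type proteins, 1 of 4 proteases and 3 of 8 other named proteins. The rest were 1 of 7 DUF220 genes, 1 of 6 oil body and desiccation genes and 1 of 14 other enzymes. These families were grouped after the genes were known, and nothing is read from the counts. Few dim probe sets were called: of 6797 probe sets with both means under 100, 7.36% were called higher and 9.74% lower, and of the 52 members with both means under 100, 4 (7.69%) were called higher and 5 (9.62%) lower. Of the 22 members with a mean of 100 or more in either group, 8 were called higher and 5 lower. The shares of 39.4% and 20.0% over all probe sets include the dim ones, which were called less often. Nothing is therefore read from the calls of these 22. The median log2 fold of the members was -0.06 in vivo against in vitro, and that of all probe sets 0.36.

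Of these, 6 members stood apart, with log2 folds over 3 and adjusted p-values from limma of 7.03e-05 or less. AT5G22430, of the Ole e 1 type of pollen allergen and extensin-like proteins, had in vivo signals of 912, 853 and 612 and in vitro signals of 9.09, 55.4 and 7.08, after 15369 to 17474 in bud. Its log2 fold in vivo against in vitro was 4.53 ± 0.43 (SE, adjusted p = 4.34e-06). AT4G04460, an aspartic protease, had 1861, 1887 and 691 in vivo, 44.8, 56.9 and 135 in vitro and 10613 to 16016 in bud. Its fold was 3.96 ± 0.48 (SE, adjusted p = 2.39e-05). The in vivo and in vitro arrays of both genes did not overlap, and the in vivo arrays stayed far below the bud arrays.

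AT2G20870, for a putative cell wall protein, had 60643, 52449 and 50744 in bud, 4478, 6020.2 and 5095 in vivo, and 312, 334 and 575 in vitro. Its log2 fold in vivo against in vitro was 3.66 ± 0.33 (SE, adjusted p = 3.02e-06). All 3 of its groups were clear of each other, in the order bud, in vivo, in vitro. The other 3 genes are GDSL-type lipases, enzymes that cut or build ester bonds of lipids and cutin. AT5G33370 had 656, 380.5 and 302 in vivo against 29.0, 13.7 and 9.47 in vitro (log2 fold 3.76 ± 0.50 SE, adjusted p = 5.22e-05). AT2G04570 had 617, 399 and 399.8 against 7.75, 77.7 and 14.1 (3.56 ± 0.49 SE, adjusted p = 7.03e-05), and AT2G42990 had 199, 303 and 185 against 7.34, 23.9 and 9.09 (3.07 ± 0.35 SE, adjusted p = 1.74e-05). No array of 1 group reached the other in these lipase genes, as in 63.5% of all probe sets. All 4 photosynthesis genes and all 3 pistil genes given above were likewise called higher in vivo than in vitro, and their part in these differences was not tested.

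**Figure D3:**
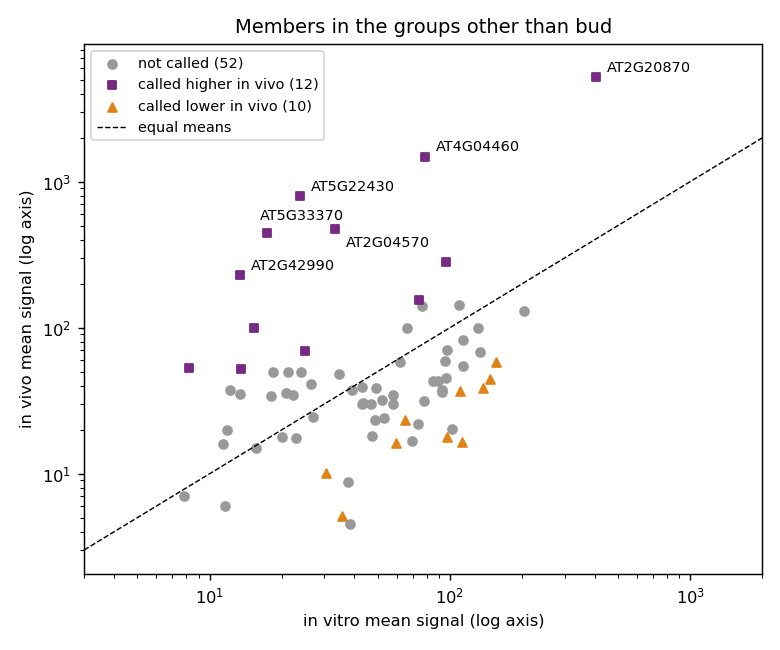
Mean signal in vivo (vertical) against mean signal in vitro (horizontal, both log axes) for the 74 genes, with the dashed line at equal means. Squares are the 12 genes called higher in vivo, triangles the 10 called lower and grey circles the 52 not called. The 6 labelled genes lie well above the line, from 229 to 5198 in vivo.

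The other calls concerned dimmer signals. Higher in vivo were AT5G65205, a short-chain dehydrogenase-like gene, with 104, 130.3 and 62.4 against 8.07, 4.27 and 33.6 (1.94 ± 0.40 SE, adjusted p = 0.00131), and AT1G23560, with 52.4, 54.1 and 51.5 against 9.07, 3.75 and 11.9 (1.52 ± 0.32 SE, adjusted p = 0.00147). These 2 and the 6 genes above passed in each of 17 other settings. The calls of AT5G59845, a gibberellin-regulated peptide gene (log2 fold 1.43), TET15, a tetraspanin (1.26), AT2G03850, of a late embryogenesis abundant type (1.06), and AT5G09500, of a ribosomal protein S19 type (0.90), were lost in some settings. The sign for AT5G09500 turned under both other scalings of the arrays, to -0.18 and -0.12.

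Among the 10 called lower in vivo, AT5G52160, a lipid transfer type gene, had 24.1, 13.5 and 11.6 in vivo and 53.2, 53.2 and 230.3 in vitro (log2 fold -1.72 ± 0.48 SE, adjusted p = 0.00829). It was the 1 gene of the 10 to pass in each of the 17 other settings, and its highest array was in vitro replicate 3. AT1G02813 had 17.6, 3.48 and 94.9 in vivo and 106, 93.5 and 213 in vitro (-1.80 ± 0.57 SE, adjusted p = 0.0178), so its groups overlapped at 1 array. AT4G20420 had 19.7, 50.1 and 63.3 in vivo and 156, 76.1 and 208 in vitro (-1.42 ± 0.53 SE, adjusted p = 0.0387). The others were AT4G29250, an acyltransferase-like gene, AT1G47980 and AT2G03740, of desiccation types, AT1G30020, AT1G44224, AT3G18360 and AT4G37900, with log2 folds of -1.54 to -0.89. The number called lower depended on scaling and on single arrays. It was 6 without bud replicate 2, 5 without in vivo replicate 1 and 3 without in vivo replicate 2. By scaling, 26 were called lower with quantile normalization and 29 with equal array medians, with 8 higher in both. Over all probe sets these scalings moved the median log2 fold from 0.36 to -0.27 and -0.46, and the called shares from 39.4% higher and 20.0% lower to 26.2% and 30.1%, and to 26.5% and 34.4%. Over all 74 genes, in vitro replicate 3 was the brightest in vitro array for 39, and in vivo replicate 3 the brightest in vivo array for 34.

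By protein family, 55 of the 74 genes could be placed, and the grouping was made after the genes were known. The 6 GDSL-type lipases had bud means from 636 to 8147. In vivo they ranged from 7.06 to 472: AT5G33370, AT2G04570 and AT2G42990 were called higher than in vitro, whereas AT1G20120 had 143 ± 45.6 in vivo and 109 ± 119.7 in vitro (SD, n = 3), AT1G75920 had 17.9 ± 9.28 and 19.9 ± 19.2, and AT1G06990 had 7.06 ± 4.47 and 7.79 ± 4.49. The last 3 were not called. In this contrast 59.3% of all probe sets were called, but among those with both means under 100 only 7.36% higher and 9.74% lower. The bud mean of AT2G42990 was 14.5 times its in vivo mean, and that of AT1G75920 was 146 times its own. The difference between the lipases was not tested.

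Wall and matrix proteins formed another group. Besides AT2G20870 and AT5G22430 it held AT2G05540, a glycine-rich protein gene, with 1408 ± 108 in bud, 49.8 ± 27.7 in vivo and 18.4 ± 4.32 in vitro (SD, n = 3). AT3G50570, for a hydroxyproline-rich protein, had 1311 ± 387, 48.5 ± 13.6 and 34.5 ± 6.56, and AT2G34700, another Ole e 1 type gene, had 768 ± 126, 29.9 ± 25.7 and 57.9 ± 29.4. These 3 were not called between in vivo and in vitro. Of enzymes that loosen the wall, the pectate lyases AT5G55720, AT1G30350 and AT4G13210 had bud means of 2085, 867 and 536. They had 34.4 to 58.7 in vivo and 49.3 to 61.7 in vitro, and none was called between in vivo and in vitro. In this contrast 59.3% of all probe sets were called, but among those with both means under 100 only 7.36% higher and 9.74% lower. Nothing is therefore read from the missing calls of these dim genes.

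Proteases were represented by 4 genes. The aspartic protease AT4G04460 is described above. AT1G06260, a papain-type cysteine protease, had 1869.96, 3398 and 3518 in bud against 56.1 to 80.5 in vivo and 69.7 to 136 in vitro. AT2G03200, another aspartic protease type, had a bud mean of 1285 ± 235 against 82.8 ± 24.8 in vivo and 114 ± 52.8 in vitro (SD, n = 3), and the subtilisin-like AT1G20150 had 556 ± 109, 41.2 ± 44.4 and 26.4 ± 22.8. Only AT4G04460 of these 4 was called between in vivo and in vitro, and the difference between the proteases was not tested. In this contrast 59.3% of all probe sets were called. Among probe sets with both means under 100, the shares were 7.36% higher and 9.74% lower, so nothing is read from this count.

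Another 6 genes belong to types known from oil bodies and drying seeds. AT1G23240, of the caleosin type, had 4143, 3438 and 2799 in bud against 38.1 to 73.9 in vivo and 67.6 to 196 in vitro. AT2G25890, an oleosin, had 1334, 1540.3 and 1008 against 15.2 to 46.7 and 11.2 to 144. LEA (AT2G21490), a dehydrin, had 792, 584 and 463 against 4.69 to 27.1 and 3.76 to 159, the last on in vitro replicate 3. AT1G47980, AT2G03850 and AT2G03740 had bud means of 4467, 4542 and 1521. The 6 in vivo means lay between 16.8 and 68.7.

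Enzymes of other kinds numbered 14, with in vivo means from 15.9 to 100.3, and 1 was called higher and 1 lower in vivo than in vitro. Of all probe sets 39.4% were called higher and 20.0% lower, and of those with both means under 100, 7.36% and 9.74%. AT5G13380, of the GH3 family that joins amino acids to plant hormones, had a bud mean of 1597 ± 300.2 against 20.2 ± 15.7 in vivo and 102 ± 109 in vitro (SD, n = 3), and its log2 fold in vivo against in vitro of -1.43 was not called (adjusted p = 0.0511). AT4G16270, a class III peroxidase, had 965 ± 504, 21.8 ± 12.9 and 73.5 ± 56.3. AT4G00040, of the chalcone synthase family, had 1026 ± 405, 59.3 ± 32.3 and 95.0 ± 75.3. The multicopper oxidase-like gene sks18 had 1142 ± 312, 37.2 ± 17.3 and 92.8 ± 98.2. BSMT1, a methyltransferase that makes volatile methyl esters of benzoic and salicylic acid, had 3.41, 7.73 and 187 in vitro, so replicate 3 alone set its in vitro mean of 66.0. In vivo it had 86.3, 122 and 92.2, and the difference was not called (adjusted p = 0.135). ATOEP16-2, a channel protein of the outer plastid envelope, and TET15 had bud means of 499.6 and 431. Another lipid transfer type gene, AT1G36150, had a bud mean of 747 ± 313 against 23.2 ± 22.6 in vivo and 48.7 ± 24.5 in vitro.

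No family was given to 19 members, AT1G68875 among them. Their in vivo means ran from 5.12 to 99.3 and their in vitro means from 13.4 to 147. In vivo against in vitro, 0 were called higher and 5 lower, where 39.4% of all probe sets were called higher and 20.0% lower. Among probe sets with both means under 100, the shares were 7.36% higher and 9.74% lower. Nothing is read from the counts of these dim genes. AT5G61605, had 9020.4, 6222 and 2565 in bud, 4.02, 7.45 and 97.2 in vivo and 15.6, 112 and 152 in vitro. Replicate 3 was the lowest of its bud arrays and the highest in both other groups, which overlapped.

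**Figure D4:**
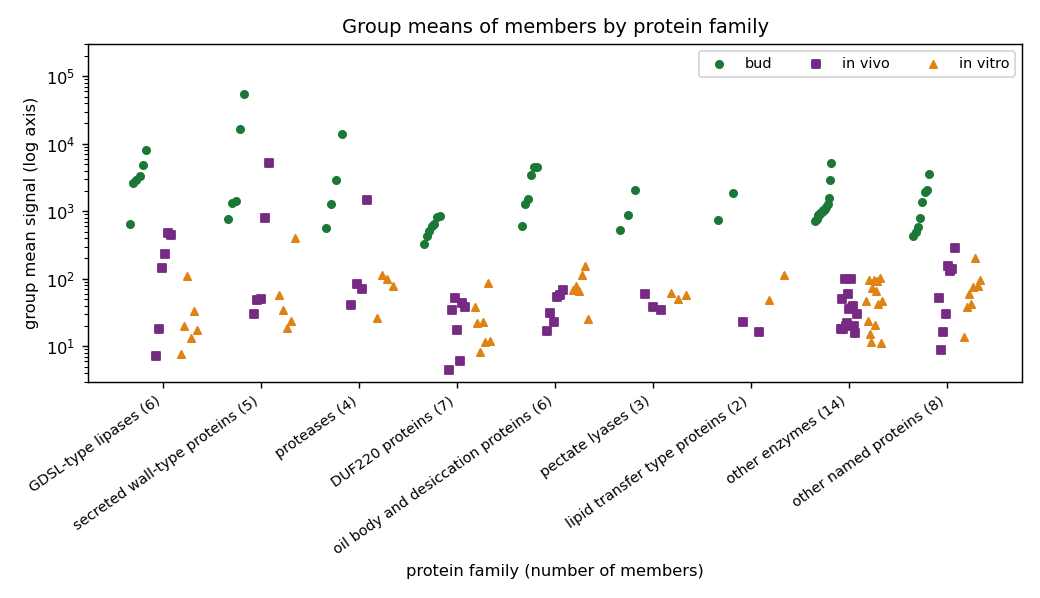
Group mean signal (vertical, log axis) of the 55 members placed in a protein family, 1 point per gene and group (circles bud, squares in vivo, triangles in vitro). In vivo squares above 100.3 lie in the lipase, secreted wall-type, protease and other named columns, up to 5198 for AT2G20870. The highest in vivo square of the other enzymes is at 100.3, and all those of the DUF220 genes lie at or below 52.7.

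A single run on chromosome 1 held 7 of the members. They are AT1G23520, AT1G23560, AT1G23570, AT1G23580, AT1G23600, AT1G23650 and AT1G23670, genes for DUF220 proteins, a plant family without an assigned function. The run spans 15 protein-coding loci in the gene order of the TAIR10.1 annotation, of which 11 had a probe set with 1 named gene. Bud means of the 7 were 323 to 839, in vivo means 4.50 to 52.7 and in vitro means 8.22 to 85.2. AT1G23600 had 755, 653 and 562 in bud, 6.80, 6.20 and 4.99 in vivo and 12.1, 10.5 and 12.1 in vitro, so its arrays were close within each group. AT1G23570 spread more, with 1253, 942 and 323 in bud. AT1G23520 had 318, 321 and 329 in bud and 8.53, 3.68 and 103 in vitro, so 1 array carried the in vitro mean.

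Inside the run 4 more loci were measured by 5 probe sets that did not meet the thresholds. AT1G23590 had group means of 209 ± 67.5 (bud), 4.80 ± 3.09 (in vivo) and 12.2 ± 9.66 (in vitro; SD, n = 3), and its log2 fold in vivo against bud was -3.41 ± 0.36 (SE, limma adjusted p = 0.000232). AT1G23610 fell by 1.92 ± 0.38 (SE, adjusted p = 0.0138). For AT1G23640, 1 probe set fell by 2.39 ± 0.48 (SE, adjusted p = 0.0155) and the other, at 40.7 in bud and 21.8 in vivo, was not called (adjusted p = 0.857). AT1G23530, which was not called, had a bud mean of 143, an in vivo mean of 119.6 and an in vitro mean of 121. In all, 3 of the 5 were called lower in vivo than in bud, where 1.87% of all probe sets were, and 3 lower in vitro, where 40.5% were. Just outside the run, AT1G23690 had 398, 258 and 173 in bud against 15.2 to 65.4 in vivo and 79.5 to 101 in vitro. It was called lower than bud in vivo (log2 fold -2.51 ± 0.42 SE, adjusted p = 0.00579) and in vitro (-1.43 ± 0.42 SE, adjusted p = 0.0113). The DUF220 genes are close relatives, so their signals are uncertain where mRNA of 1 gene binds the probes of another, which was not tested.

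**Figure D5:**
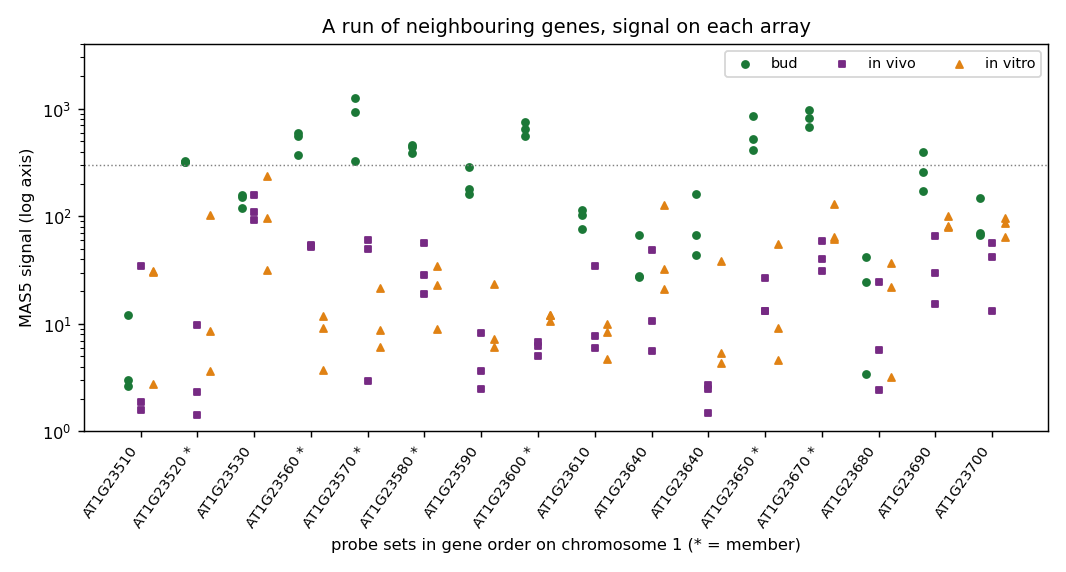
Signal on each array (vertical, log axis) for the measured genes of the chromosome 1 run and its flanks, in gene order (horizontal), with members marked by an asterisk and the dotted line at 300. Circles are bud, squares in vivo and triangles in vitro. Bud circles of AT1G23590 and AT1G23610 also lie above their other arrays but under 300, and those of the flanking AT1G23690 lie above its other arrays on both sides of 300, whereas those of AT1G23530 and AT1G23680 do not stand apart.

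Neighbours were otherwise few. Of the 74 genes, 11 (14.9%) had another member within 10 genes, against 4.80% of 12150 other measured genes. Outside the run it was 4 of 67 (5.97%), against 4.65% of the others. The 4 form the pairs AT1G20120 with AT1G20150 and AT5G16920 with AT5G16960. Chromosome 1 held 28 of the 74 (37.8%, against 26.3% of all measured genes) and chromosome 3 held 7 (9.46%, against 20.5%). The 28 include the 7 neighbouring genes of the run.

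Of 51 genes in 6 lists of anther development, 18 were measured by a probe set naming the gene alone. No gene was listed for 8730 of the 22746 probe sets, so the other genes may still be on the array. Of the 18 measured, 3 are members, 6 met the value thresholds but were set aside by name, and 9 did not meet the thresholds. Of those 9, 4 were called lower in vivo than in bud (1.87% of all probe sets) and 7 lower in vitro (40.5% of all probe sets). AMS and SWEET8, among the 4 lower in vivo, also have names that the rule leaves out. The tapetum regulator AMS had a bud mean of 755 ± 236 against 26.3 ± 10.5 in vivo and 122 ± 156 in vitro (SD, n = 3), and fell by 4.17 ± 0.75 in vivo (SE, adjusted p = 0.00847). SPL, which starts spore-forming tissue in the anther, fell by 3.10 ± 0.30 (SE, adjusted p = 0.00012) from a bud mean of 157. SWEET8, a sugar carrier needed for the pollen wall, fell by 3.11 ± 0.33 (SE, adjusted p = 0.000263), and AT5G54010, a glycosyltransferase of pollen flavonols, by 3.01 ± 0.43 (SE, adjusted p = 0.00188). In vitro AT5G54010 was called higher than in bud, with 472 ± 79.2 against 212 ± 44.0 (SD, n = 3; log2 fold 1.11 ± 0.43 SE, adjusted p = 0.0413). EMS1, the receptor that specifies the tapetum, had 718 ± 228 in bud and 665 ± 182 in vivo (adjusted p = 0.994). Of 2 measured sperm and generative cell genes, the tetraspanin TET11 had a bud mean of 590.0 ± 129 against 39.4 ± 12.0 in vivo and 855 ± 253 in vitro, and fell by 3.45 ± 0.35 in vivo against bud (SE, adjusted p = 0.000189). The other, the histone gene MGH3, had a bud mean of 262 ± 121 against 245 ± 66.2 in vivo and 4491 ± 1069 in vitro, and was not called in vivo against bud (adjusted p = 0.999).

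Among 3 measured tapetum genes, none of which met the value thresholds, AMS and SPL fell in vivo (median log2 fold of the 3 -3.10, against -0.02 for all probe sets). Outside the genes that met the value thresholds, 1 of 2 genes for sporopollenin and exine fell, which was SWEET8, and the 1 gene for spermidine conjugates and flavonols, AT5G54010. All 6 anther lipid transfer genes met those thresholds, 1 as a member and 5 set aside by name, so nothing is read from their fall. In the pollen coat list 1 of 4 fell, and this was the member AT1G75920. Its relatives AT1G75880 and AT1G75900 had 1658 ± 752 and 1794 ± 293 in bud and 1776 ± 872 and 2059 ± 555 in vivo (SD, n = 3), with adjusted p = 0.996 and 0.994. In vitro all 4 were called lower than in bud, as were 40.5% of all probe sets. The genes of the callose list were not analysed here, as none had a probe set naming it alone.

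The bud arrays agreed to different degrees. The highest bud array was 1.03 to 4.38 times the lowest, with a median of 1.56, and 32 of the 74 genes stayed under 1.5. The median coefficient of variation over the bud arrays was 23.2%, against 21.7% for the 9032 probe sets with a bud mean of at least 300. AT2G37750 spread most, with 1199, 366 and 273, with its highest on replicate 1, while AT4G20420, with 3014, 8306 and 10799, was lowest there. Bud replicate 1 was the lowest bud array for 39 genes, bud replicate 3 for 24 and bud replicate 2 for 11. The highest bud array was replicate 1 for 27 genes, replicate 2 for 26 and replicate 3 for 21. Over the 9032 probe sets these shares were 32.8%, 31.0% and 36.2%, against 36.5%, 35.1% and 28.4% of the members. Shares for the lowest array were not taken over all probe sets.

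Just inside the bud minimum were AT1G23520 (323), AT1G23580 (430.1) and TET15 (431), and just outside were AT5G03620 (285), ZW9 (278) and AT4G28160 (263). The smallest bud ratios inside belonged to TET15 (8.22), AT1G23520 (8.38) and AT4G13210 (8.70), and the largest outside to AT2G33690 (7.69), AT1G07795 (7.64) and AT3G57810 (7.55). No gene that met the other thresholds failed on overlap: the lowest bud array was at least 2.86 times the highest other array. Another probe set for AT1G44224 had a bud mean of 8.22 against 2.79 in vivo and 79.5 in vitro, unlike the member probe set, at 461 ± 221, 5.12 ± 3.35 and 35.7 ± 13.3 (SD, n = 3).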

How the data were processed

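Polysomal mRNA of 9 samples was measured on Affymetrix arrays, with 3 biological replicates for each of 3 groups. The deposited values are linear intensity values per probe set, which the authors made with MAS5 (named, with no version, in the submitters' processing notes). The trimmed means (2% at each end) of the deposited arrays were 500.04 to 500.13. Of 22810 probe sets, 64 controls were left out. Probe sets were named through the platform table and RefSeq gene IDs. Protein families of genes known by locus code are general background, not from these tables. Start coordinates served only to put the genes in order along the chromosomes, and no sequences were used.

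Signals were taken as log2(value + 16) and fitted in limma 3.58.1 (R 4.3.3) with 1 mean per group over all 9 arrays, and p-values were adjusted by Benjamini-Hochberg over 22746 probe sets, called under 0.05. The test was two-sided. The script was tested on simulated data. By rule, values for each array could be given for AT1G68875 and the 12 highest bud means. The same held for the 6 highest and 6 lowest log2 folds in vivo against in vitro. It also held for the 3 nearest genes on each side of each threshold. Listed genes that are members or were called in vivo against bud were included too. Some genes under this rule are given with group means or log2 folds alone. Other genes (further called members, protein families, the chromosome 1 run, AT1G23690, EMS1, MGH3, AT1G75880 and AT1G75900) were named after their values were seen, some with values for each array. The members and lists were chosen with earlier results of these data known. The number of arrays limits the precision.

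Same-numbered arrays of different groups did not deviate together (9 correlations of -0.05 to 0.07), so replicate numbers were not treated as pairs. Alternatives were another offset, quantile or equal-median scaling, a filter on dim probe sets, 6 arrays alone, a replicate block, a robust trend fit, each array left out, and other thresholds.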

Additional observations from a re-analysis of the deposited data

How the results depend on the processing

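Under 17 alternatives the number of members called lower in vivo than in bud was 67 to 74, lower in vitro than in bud 74, and higher in vivo than in vitro 8 to 16. The 10 called lower in vivo than in vitro became 5 with an offset of 64, 26 with quantile normalization, 29 with equal array medians, 5 with the 6 arrays alone, and 3 to 10 when single arrays were left out. The cause was not tested. Over all probe sets the median in that contrast was 0.36, and it was -0.27 and -0.46 under these scalings. With the replicate block 11 members were higher and 9 lower in vivo than in vitro, and no count moved by over 1.5 times. The calls of AT2G03740, AT4G37900 and AT2G03850 were among those lost. The rule gave 39 genes with a fold of 16 and 101 with a fold of 4, 54 under quantile normalization, 50 under equal medians, and 72 to 79 without single arrays. In vivo against in vitro, AT1G68875 had a log2 fold of 0.58 and did not pass in any setting. It turned to -0.053 with equal medians, and leaving out single arrays gave -0.062 (without in vivo replicate 3) to 1.29 (without in vivo replicate 2). AT5G09500 turned to -0.18 with quantile normalization and -0.12 with equal medians. Of the anther list genes outside the members, 3 to 4 of 9 were lower in vivo and 5 to 7 lower in vitro than in bud. Detection calls were not used, so it is not known here which of the dim signals lie above background.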
